A study of Drosophila melanogaster with 48 samples.

Results

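The genes described here are the 6 Hsp70 copies of Drosophila melanogaster (Hsp70Aa, Hsp70Ab, Hsp70Ba, Hsp70Bb, Hsp70Bbb and Hsp70Bc), Hsp68 and Hsp83. They were found by symbol in the annotation of the deposited table and make up 8 of its 17481 genes. They were chosen because the line ZI470 had high levels of them at stage 5, so that difference is described below and not tested. RNA was measured in 48 single embryos, 3 for each of 8 lines and 2 stages. The Zambia lines ZI470, ZI050, ZI094 and ZI160 and the Raleigh lines RAL307, RAL357, RAL360 and RAL517 are inbred isofemale lines, each founded by a single wild female. No heat treatment of these embryos is described. Late stage 5 embryos had finished cellularization, carry zygotic transcripts and were genotyped as XY. Stage 2 embryos precede zygotic transcription, hold RNA loaded by the mother and are of unknown sex. A line stands for 1 inbred stock, so differences between lines are differences between such stocks. The authors report inbreeding over fewer generations, as a minimum, for the Zambia lines than for the Raleigh lines. Embryos of a line may thus still differ in genotype.

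Hsp70 proteins are ATP-driven chaperones that bind unfolded polypeptides, and the Hsp70 genes of the fly are the classical heat-inducible genes, activated by the heat shock factor Hsf. Hsp68 encodes a related inducible chaperone. Hsp83 encodes the cytosolic Hsp90, which is made without heat in many tissues, is loaded into the egg and rises further on heat shock.

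The 6 Hsp70 copies lie on chromosome arm 3R of the BDGP6 assembly as 2 groups, and each is annotated as a single exon. At cytological position 87A, Hsp70Aa (11954163 to 11956544, minus strand) and Hsp70Ab (11958535 to 11960909, plus strand) are divergent neighbours 1990 bp apart. At 87C, Hsp70Ba (12465453 to 12467776, minus strand) is followed by Hsp70Bbb (12502510 to 12504856), Hsp70Bb (12505793 to 12508139) and Hsp70Bc (12509076 to 12511461), all 3 on the plus strand and spaced by 936 bp. Hsp68 lies on 3R from 24055080 to 24057310 on the minus strand, and Hsp83 on 3L from 3192969 to 3197059 on the plus strand. Hsp70Ab overlaps CG3281 on the opposite strand by 27 bp. Hsp68 overlaps CG6000 and lncRNA:CR44097 on the opposite strand by 13 bp, and Hsp83 overlaps CG14966 by 15 bp. The sources used here do not say whether counting used the strand.

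The Hsp70 copies are nearly identical, and how reads that fit several copies were counted is not given in the sources used here. Values of single copies are therefore uncertain. The counts of Hsp70Ab and Hsp70Aa had a ratio between 0.857 and 1.17 over all 48 embryos, with a median of 1.03. The ratio of Hsp70Bbb to Hsp70Bb had a median of 1.02 and lay between 0.600 and 1.31. Within each of these pairs the counts moved almost as 1 gene. Whether the RNAs did so cannot be told, since the counting of shared reads is not known. Most values below are given for the sum of all copies or for the sums at 87A and 87C. These sums, and the shares of 87A, also depend on that counting.

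Total counts per embryo lay between 25090803 and 30329144 at stage 2. At stage 5 they lay between 25394907 and 30783589, apart from RAL360 replicate 3 with 340746. Levels are counts scaled to library size by TMM over all 48 embryos (CPM), and 3 counts equal about 0.108 CPM in the median stage 5 library before TMM scaling and 8.80 CPM in RAL360 replicate 3. Such floors, and the intervals below, cover counting error only, since reads were not tagged by molecule. In whole embryos, fewer expressing cells and less RNA per cell cannot be told apart. The columns of the 3 RAL357 embryos of each stage carry the same number, and the embryos are called a, b and c here.

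At stage 5 the summed Hsp70 RNA stood far higher in ZI470 than in any other line. It reached 2674, 4187 and 1074 CPM in the 3 ZI470 embryos, against 60.9 to 514 CPM in the 21 embryos of the other lines, whose median was 224 CPM. The lowest ZI470 embryo had more Hsp70 RNA than the highest other embryo, which belonged to ZI160. The mean was 2645 ± 1557 CPM in ZI470 (SD, n = 3 embryos) and 236 ± 116 CPM over the other lines (SD, n = 7 line means), a ratio of 11.2. Against ZI160, the next line, the ratio of means was 6.50. The ZI470 embryos themselves differed 3.90-fold from the lowest to the highest.

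**Figure D1:**
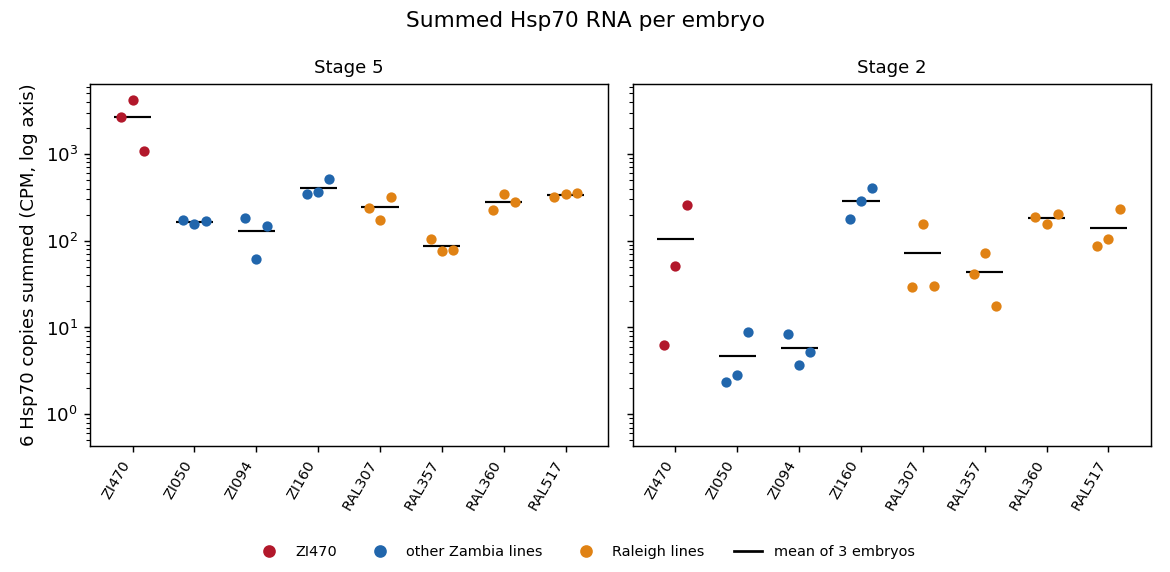
Summed RNA of the 6 Hsp70 copies in CPM on a log axis, for each of 8 lines at stage 5 (left) and stage 2 (right). Points are single embryos and bars the mean of 3 embryos. At stage 5 the 3 ZI470 embryos, at 1074 to 4187 CPM, lie above all others, while at stage 2 they spread from 6.20 to 260 CPM.

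The difference was unequal between the 2 groups of copies. Hsp70Aa had 865, 1437 and 354 CPM in the ZI470 embryos and 11.9 to 95.8 CPM in the embryos of the other lines. Its mean was 24.9 times that of the other lines, and the ratio for Hsp70Ab was 25.4. The copies at 87C had lower ratios, of 4.68 for Hsp70Ba, 5.04 for Hsp70Bb, 5.27 for Hsp70Bbb and 5.09 for Hsp70Bc. For these 4 copies the lowest ZI470 embryo stood only just above the highest other one, as for Hsp70Ba with 57.3 CPM in ZI470 and 55.7 CPM in RAL517 replicate 2. RAL360 replicate 3 had only 14 counts of Hsp70Ba, whose exact 95% Poisson interval of 22.4 to 68.7 CPM reaches above that ZI470 embryo. All 3 ZI470 embryos lay above all 21 others for 7 of the 8 genes, and for 2.88% of the genes tested at this stage. The members were chosen on this contrast, so nothing is read from that count.

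**Figure D2:**
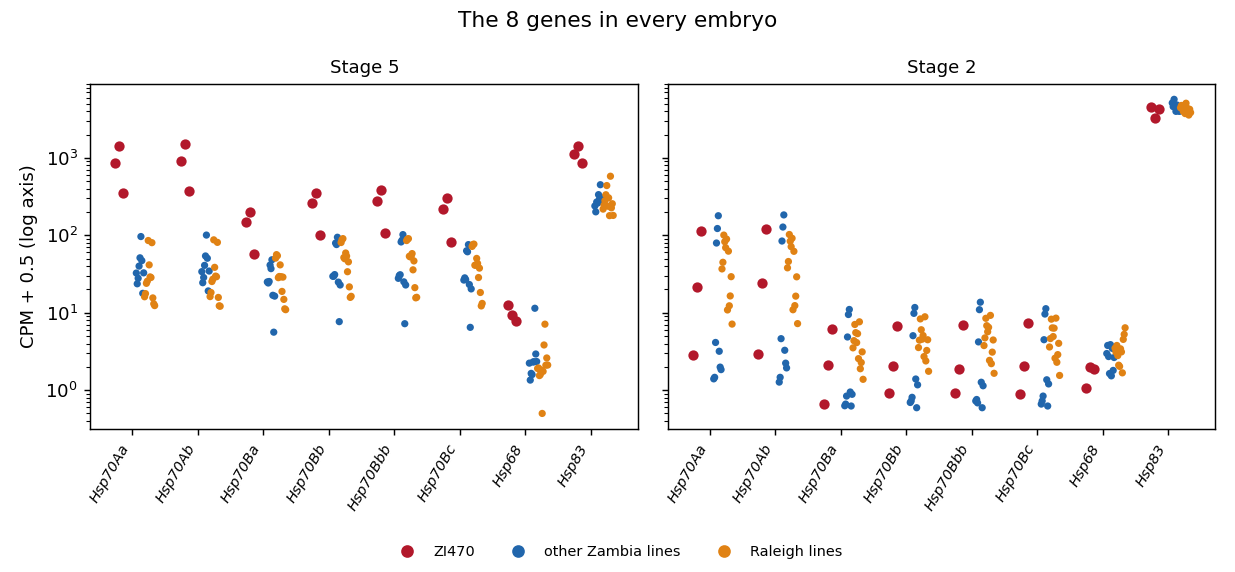
CPM plus 0.5, on a log axis, of the 8 genes in every embryo at stage 5 (left) and stage 2 (right), with ZI470 to the left of the other lines within each gene. At stage 5 the gap between ZI470 and the other lines is widest for Hsp70Aa and Hsp70Ab, whose means differ by 24.9-fold and 25.4-fold.

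The share of Hsp70 counts that fell on Hsp70Aa and Hsp70Ab was computed after these values were seen and is a description. At stage 5 it was 66.4% (95% Wilson interval 66.1 to 66.8%), 70.3% (70.0 to 70.6%) and 67.7% (67.1 to 68.2%) in the ZI470 embryos. In the other 21 embryos it lay between 9.82% and 59.0%, with a median of 30.2%. ZI470 was thus the line with the highest 87A share, ZI094 came next with a mean of 52.2 ± 6.90% (SD, n = 3), and RAL517 was lowest with 11.2 ± 2.00%. At stage 2 the 87A copies held most of the Hsp70 counts in every embryo. Their share there was 77.0%, 88.1% and 90.2% in ZI470, and it lay between 53.7% and 90.8% in the other lines, so ZI470 did not stand apart. The lowest, 53.7% in ZI094 replicate 3, had a 95% Wilson interval of 46.0 to 61.2%, so a majority is not certain in that embryo.

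**Figure D3:**
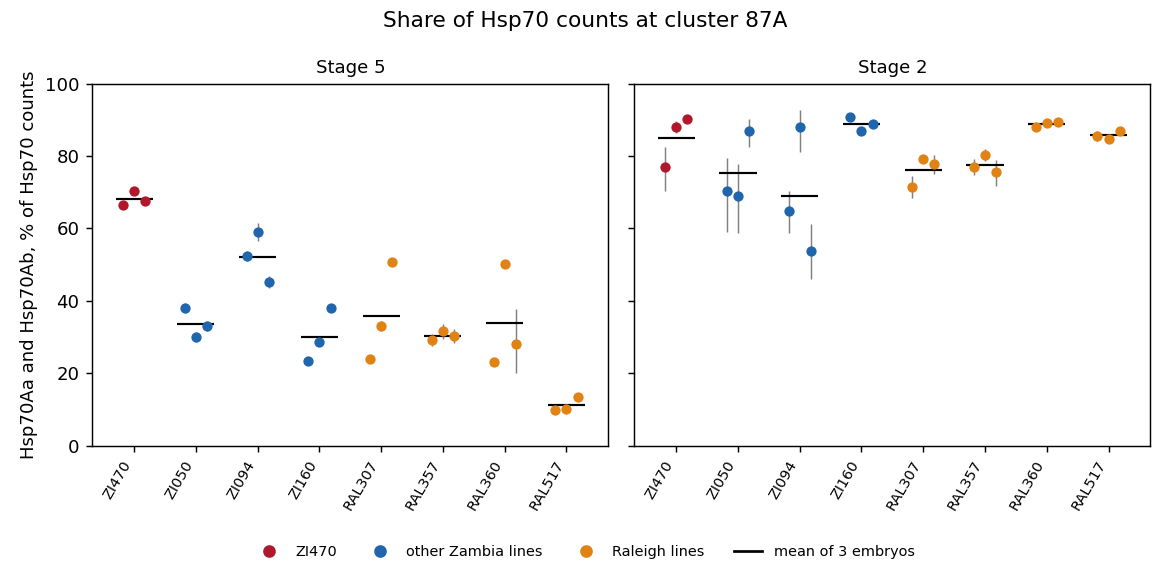
Share of all Hsp70 counts that fell on the 2 copies at 87A, in percent, for each line at stage 5 (left) and stage 2 (right). Points are embryos with 95% Wilson intervals and bars the mean of 3 embryos. The ZI470 embryos hold 66.4 to 70.3% at stage 5, above all 21 others.

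Hsp83 was also highest in ZI470 at stage 5. It had 1135, 1429 and 864 CPM in the ZI470 embryos, against 179 to 578 CPM in the others, with RAL307 replicate 3 the highest of these. The means were 1143 ± 283 CPM in ZI470 (SD, n = 3) and 290 ± 55.7 CPM over the other lines (SD, n = 7 line means), a ratio of 3.94. Per kilobase of exon, Hsp83 had 386 CPM in ZI470 and 98.0 CPM in the other lines. The counts assigned to Hsp70Aa gave 372 CPM per kilobase in ZI470 and 14.9 CPM in the other lines. How reads shared between copies were counted is not known, so the level of a single copy is not ranked against Hsp83.

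Hsp68 was the least abundant of the 8 genes, at 4.23 CPM per kilobase of exon in ZI470 and 0.991 CPM in the other lines at stage 5. The ZI470 embryos had 11.99, 8.96 and 7.37 CPM. The embryos of the other lines had up to 10.9 CPM, in ZI094 replicate 1, and a median of 1.60 CPM. ZI094 replicate 1 thus overlapped with ZI470, and the ratio of means was 4.27. RAL360 replicate 3 had 0 counts, whose exact 95% Poisson interval at its depth reaches 10.8 CPM. Of the 13 genes that overlap or neighbour a member, 1 had all 3 ZI470 embryos above all 21 others at stage 5, against 2.88% of all genes. It was Pisd, beside Hsp68, with 46.7 to 52.3 CPM in ZI470 and 20.5 to 44.4 CPM in the other lines.

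**Figure D4:**
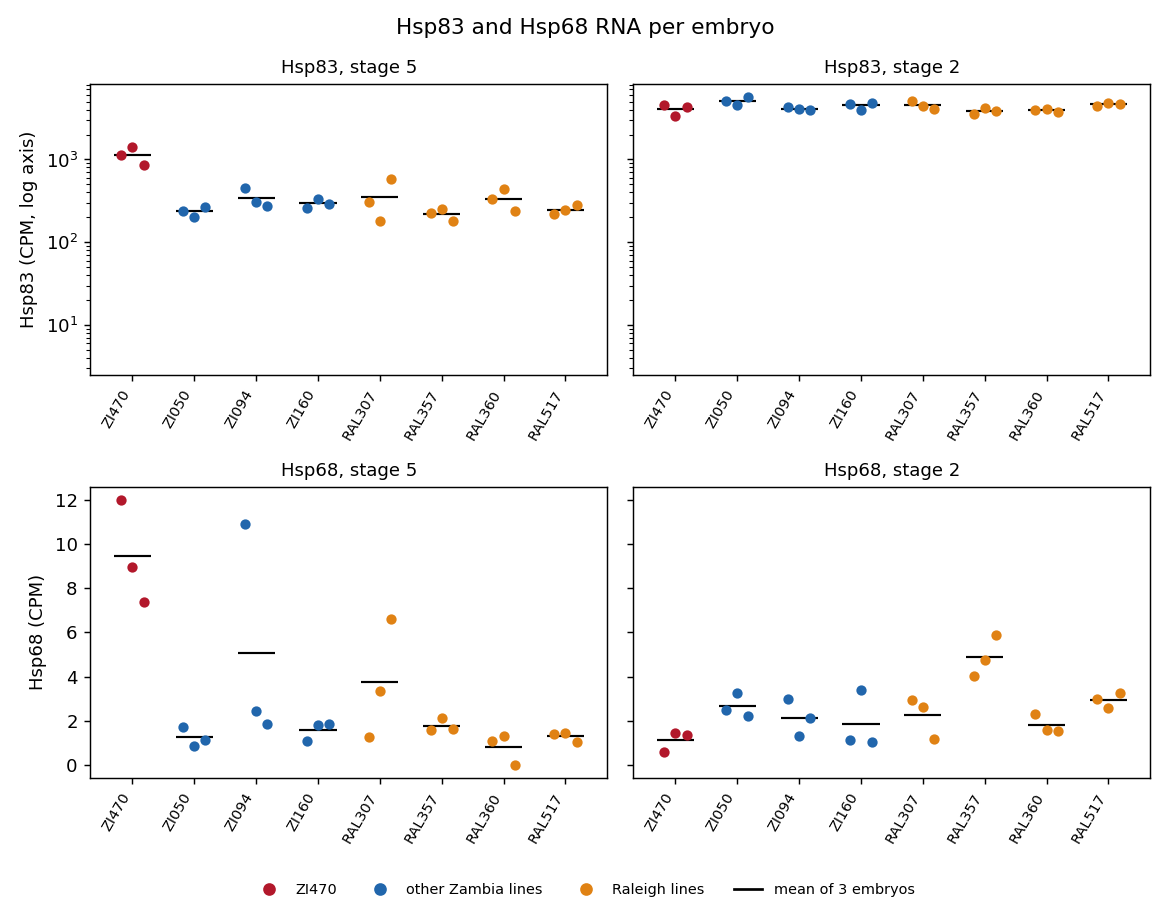
RNA of Hsp83 (top, CPM on a log axis) and Hsp68 (bottom, CPM on a linear axis) at stage 5 (left) and stage 2 (right) in each line. Points are embryos and bars the mean of 3 embryos. Hsp83 lies at 864 to 1429 CPM in ZI470 at stage 5 and at 179 to 578 CPM in the other lines.

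Among the remaining lines at stage 5, Hsp70 RNA differed between lines of both populations. The line means of the sum were, in order, 407 CPM in ZI160, 340 CPM in RAL517, 283 CPM in RAL360, 243 CPM in RAL307, 166 CPM in ZI050, 131 CPM in ZI094 and 86.3 CPM in RAL357. Each line overlapped in its embryos with the next one in this order. RAL357, with 77.1 to 104 CPM, stood below all embryos of RAL517, RAL360 and RAL307.

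Between the 4 Raleigh lines all 6 Hsp70 copies differed at stage 5 (adjusted p between 4.87e-06 and 0.00674, edgeR's quasi-likelihood test, n = 12 embryos), where 25.0% of all genes tested did. The highest line mean of the sum was above the lowest by 1.97 on the log2 scale (log2 of CPM plus 0.5). Here and below, tests between lines ask for any difference among the lines and do not test this ratio. For the sum this quasi-likelihood test gave an adjusted p of 9.23e-05. Without RAL357 the log2 ratio of the highest to the lowest line mean was 0.48. The same test then gave the sum an adjusted p of 0.152, with 21.6% of all genes called, while the 4 copies at 87C were still called. The calls of Hsp70Aa and Hsp70Ab were lost without any 1 embryo of RAL517 or RAL357, and that of Hsp70Aa also without RAL360 replicate 2 or 3. In these fits between 17.8% and 27.1% of all genes were called. Hsp68 (adjusted p = 0.0294) and Hsp83 (adjusted p = 0.173) did not pass the threshold of 0.01, but Hsp68 did without RAL307 replicate 1 (adjusted p = 0.00204).

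Between ZI050, ZI094 and ZI160, 4 of the 8 genes were called at stage 5, the copies at 87C (adjusted p between 0.000404 and 0.00255, edgeR's quasi-likelihood test, n = 9 embryos). In the same fit 39.6% of all genes were called, so a call alone sets no gene apart. The 87C sum was 280 ± 33.2 CPM in ZI160, 110 ± 2.73 CPM in ZI050 and 64.3 ± 34.3 CPM in ZI094 (SD, n = 3 each). Hsp70Aa had an adjusted p of 0.0268 and Hsp70Ab one of 0.0283, Hsp68 one of 0.0241 and Hsp83 one of 0.0627. At an adjusted p under 0.05 all but Hsp83 would be called, as would 58.4% of all genes. Without the filter on low counts Hsp70Aa, Hsp70Ab and Hsp68 passed as well (adjusted p between 0.0043 and 0.00467), where 27.7% of all genes did. Hsp68 also passed without ZI094 replicate 3 (adjusted p = 0.00723).

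At stage 2 the ZI470 embryos did not stand together. Their summed Hsp70 RNA was 6.20, 50.8 and 260 CPM in replicates 1, 2 and 3, a 41.9-fold range that covers much of the 2.37 to 407 CPM seen in the other 21 embryos. The plain means were alike, at 106 ± 135 CPM in ZI470 (SD, n = 3) and 106 ± 105 CPM over the other lines (SD, n = 7 line means). The fitted log2 difference between ZI470 and the mean of the other 7 lines was 1.11 (standard error 0.59, adjusted p = 0.206, edgeR's quasi-likelihood test, n = 3 against 21 embryos). Its direction rested on replicate 3, without which it was -0.81. The fit averages the other lines on the log scale. For the 4 copies at 87C the plain means gave log2 ratios between -0.43 and -0.25 (CPM plus 0.5). None of the 8 genes was called, against 7.64% of all genes tested, a share that was 13.3% without ZI470 replicate 1 and 4.81% without replicate 2. At an unadjusted p under 0.05, Hsp70Ab and Hsp68 passed, as did 31.2% of all genes, and with DESeq2's test Hsp68 was called, as were 10.2%.

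Hsp68 had 0.563, 1.46 and 1.37 CPM in the stage 2 ZI470 embryos and 1.03 to 5.89 CPM in the others, a log2 difference of -1.16 (standard error 0.37, adjusted p = 0.0365). At an adjusted p under 0.05 it would be the 1 member called, against 15.7% of all genes. Hsp83 was the most abundant of the 8 genes at this stage. It had 4594, 3313 and 4248 CPM in ZI470 and 3571 to 5698 CPM in the other lines, a log2 difference of -0.13 (standard error 0.09, adjusted p = 0.319). Both genes overlapped between ZI470 and the other lines.

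Maternal Hsp70 RNA differed widely between the Zambia lines. The sum was 179, 287 and 407 CPM in the ZI160 embryos, from the lowest to the highest, and 3.65 to 8.41 CPM in ZI094 and 2.37 to 8.92 CPM in ZI050. ZI160 therefore had the highest line mean of all lines and ZI050 and ZI094 the lowest, with ZI470 spread between them. All 6 copies were called between the 4 Zambia lines (adjusted p between 0.00309 and 0.00677, edgeR's quasi-likelihood test, n = 12 embryos), where 17.2% of all genes were. The log2 ratio of the highest to the lowest line mean was 5.85 for the sum. The same test, of any difference between the 4 lines, gave the sum an adjusted p of 0.00332. Leaving out 1 embryo at a time left between 0 and 6 copies called, with fewer than 6 without any 1 embryo of ZI050 or ZI094 or without ZI160 replicate 2 or 3. In those same 8 fits the share of all genes called fell too, to between 8.65% and 11%. Without ZI470 replicate 1 it was 36.4%. The ratio of the sum itself lay between 5.53 and 6.60 in these fits.

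Between the Raleigh lines none of the 8 genes was called at stage 2, against 21% of all genes, a share that was 13.5% and 13.7% without RAL517 replicates 1 and 2. At an unadjusted p under 0.05, 4 passed, against 51.9% of all genes, and DESeq2's test called 1, Hsp68, against 32.6%. The sum had line means of 182 ± 22.8 CPM in RAL360, 141 ± 79.1 CPM in RAL517, 71.7 ± 72.7 CPM in RAL307 and 43.4 ± 26.9 CPM in RAL357 (SD, n = 3 each). The embryos of RAL307 alone, from 29.0 to 156 CPM, covered most of the range of these means. For any difference between the 4 lines the sum had an adjusted p of 0.0803 (edgeR's quasi-likelihood test, n = 12 embryos). Without RAL307 replicate 2, Hsp70Aa and Hsp70Ab were called, and without RAL307 replicate 3 Hsp68 was, where 17.5% and 19.7% of all genes were. Hsp68 was highest in RAL357, with 4.02 to 5.89 CPM, above every other stage 2 embryo of a Raleigh line. RAL357 alone was not tested against the other lines. For any difference between the 4 lines Hsp68 had an adjusted p of 0.0184 in edgeR's quasi-likelihood test. At an adjusted p under 0.05 it would be the 1 member called, against 40.2% of all genes.

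Between the stages the copies at 87C and those at 87A had unlike values, a contrast that was not tested. The 87C sum was higher at stage 5 in all 8 lines, with no overlap between the embryos of the 2 stages, and its ratio of line means lay between 6.48 in RAL357 and 120 in ZI050. The 87A sum was higher at stage 5 in ZI470 (19.2-fold), ZI094 (17.4-fold) and ZI050 (14.8-fold) without overlap, and in RAL307 (1.64-fold) with overlap. It was lower at stage 5 in ZI160, RAL357 and RAL360, with ratios of 0.492, 0.762 and 0.624, but the embryos of the 2 stages overlapped. In RAL517 it was lower without overlap, with a ratio of 0.313.

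Over the 7 lines without ZI470, Hsp70Ba, Hsp70Bb, Hsp70Bbb and Hsp70Bc rose by 3.48, 3.89, 3.87 and 3.67 on the log2 scale at stage 5 (standard errors 0.27 to 0.29, highest adjusted p = 2.04e-14, edgeR's quasi-likelihood test, n = 42 embryos). Hsp70Aa and Hsp70Ab had log2 changes of 0.44 each (standard errors 0.45, adjusted p = 0.341). At this comparison 55.2% of all genes were higher and 36.9% lower, so a call alone sets no gene apart. The median log2 change of all genes tested was 0.58. The fit, also used for Hsp83 and Hsp68 below, takes embryos as replicates and 1 stage change for all lines. Its p-values therefore treat embryos of a line as independent, although the stage ratios above differed from line to line.

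Hsp83 fell by 3.95 on the log2 scale at stage 5 (standard error 0.11, adjusted p = 5.59e-30, edgeR's quasi-likelihood test, n = 42 embryos). Its ratio of stage 5 to stage 2 lay between 0.0459 and 0.0857 in these 7 lines, while in ZI470 it was 0.282. Hsp68 changed by -0.39 (standard error 0.25, adjusted p = 0.140), and without ZI094 stage 5 replicate 1 it was called with -0.59 (adjusted p = 0.00787). It was lower at stage 5 without overlap in ZI050, RAL357 and RAL517. In RAL360 it had 1.09 and 1.32 CPM in replicates 1 and 2 at stage 5 and 1.53 to 2.30 CPM at stage 2, while replicate 3, with 0 counts, cannot be placed. In ZI470 it was 8.33-fold higher without overlap.

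The populations did not separate for any of the 8 genes. At stage 2 the log2 difference of the sum, Zambia minus Raleigh, was -0.09 (standard error 0.77, adjusted p = 0.951, edgeR's quasi-likelihood test, n = 12 embryos each), and 0 members were called against 6.77% of all genes. Hsp68 alone had an unadjusted p under 0.05, as did 30.3% of all genes, with a log2 difference of -0.59 (standard error 0.28, adjusted p = 0.156). At stage 5 without ZI470 the difference of the sum was -0.02 (standard error 0.34, adjusted p = 0.979, n = 9 and 12 embryos), and 0 members were called against 10.2% of all genes. No member had an unadjusted p under 0.05 there, against 35.7% of all genes. With DESeq2's test 0 members were called at either stage, against 9.47% of all genes at stage 2 and 12.9% at stage 5. With ZI470 kept, a value given without a test, the stage 5 difference of the sum was 1.82. Embryos of a line come from 1 inbred stock, so these tests, which take embryos as replicates, overstate the number of independent genotypes.

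Other genes of the heat shock response were set beside these values from lists of chaperones and co-chaperones. At stage 5 all 3 ZI470 embryos lay above all 21 others for 1 of 9 constitutive and organelle relatives and for 3 of 10 genes of the list with Hsf and the co-chaperones, against 2.88% of all genes. The lists were drawn up with earlier results of these data known, so nothing is read from these counts. The first was Hsp60A, the mitochondrial chaperonin, with 34.6 to 58.0 CPM in ZI470 and 8.78 to 20.997 CPM in the other lines. The others were Hsf, Stip1 and DnaJ-H. Hsf, the heat shock factor, had 183 to 221 CPM in ZI470 and 108 to 181 CPM in the others. RAL360 replicate 3 had 53 counts of Hsf, whose exact 95% Poisson interval of 116 to 203 CPM reaches above the lowest ZI470 embryo. Stip1, a co-chaperone that links Hsp70 and Hsp90, had 143 to 154 CPM in ZI470 and 73.5 to 114 CPM in the others. DnaJ-H, a J-domain protein, had 4.4 to 6.74 CPM in ZI470 and 0 to 1.99 CPM in the others. For DnaJ-H, RAL360 replicate 3 had 0 counts, whose exact 95% Poisson interval reaches 10.8 CPM. DnaJ-H is therefore shown to separate only from the 20 other embryos, as do 3.16% of all genes.

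The J-domain co-chaperone DnaJ-1 had 177 to 247 CPM in ZI470 and 46.8 to 200 CPM in the other lines at stage 5, so it overlapped. The heat-induced noncoding RNA lncRNA:Hsromega was the 1 gene of the list with all 3 ZI470 embryos below the others, as for 1.81% of the genes tested. It had 59.2 to 71.4 CPM in ZI470 and 73.4 to 252 CPM in the other lines. RAL360 replicate 3 had 30 counts of it, whose exact 95% Poisson interval of 59.2 to 125 CPM reaches below the highest ZI470 embryo. None of the 8 small heat shock proteins stood apart. However, Hsp22, Hsp67Ba, CG4456 (Hsp67Bb), Hsp67Bc and l(2)efl had under 0.5 CPM in every stage 5 embryo, too low to show a difference. Hsp26 had 20.1 to 36.1 CPM in ZI470 and 11.96 to 38.6 CPM in the others, Hsp27 had 22.8 to 29.4 CPM in ZI470 and 5.85 to 31.9 CPM in the others, and Hsp22 had no counts in any embryo of either stage.

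At stage 2, 1 of the 10 genes of the list with Hsf and the co-chaperones and none of the 9 relatives was called between ZI470 and the other lines, against 7.64% of all genes. It was stv, a co-chaperone of the BAG family, with 22.2, 0.591 and 0.327 CPM in ZI470 replicates 1, 2 and 3 and 0 to 1.31 CPM in the others (log2 difference 4.72, adjusted p = 1.44e-05, edgeR's quasi-likelihood test, n = 3 against 21 embryos). Without replicate 1 the log2 difference was 0.65 (adjusted p = 0.392). That embryo had the lowest Hsp70 sum of the 3.

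Between stages, over the 7 lines, the 9 relatives had 3 genes higher and 5 lower at stage 5, and the 10 genes with Hsf and the co-chaperones 3 higher and 6 lower, against 55.2% of all genes higher and 36.9% lower. Of the 4 small heat shock proteins tested, Hsp23 rose by 1.51 and Hsp26 fell by 5.82 and Hsp27 fell by 5.51 on the log2 scale (adjusted p at most 1.17e-10). Hsc70-4, the main constitutive cytosolic relative of Hsp70, rose by 0.86 (standard error 0.04), and at stage 5 it had 6472 to 7769 CPM in ZI470 and 4942 to 8288 CPM in the other lines.

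The stage labels were checked with genes of known timing. Zygotic ftz, eve, sna and twi rose and maternal osk, bcd and nanos fell at stage 5. In ZI470 at stage 5 all 7 overlapped with the other lines. At stage 2 eve and sna were called higher in ZI470, against 7.64% of all genes in either direction, and the median log2 difference of the 4 zygotic genes was 0.99 (0.0186 over all genes). The pair-rule gene eve had 0.597 to 0.872 CPM in ZI470 and 0.1 to 0.667 CPM in the other lines (adjusted p = 0.00368, edgeR's quasi-likelihood test, n = 3 against 21 embryos), and the mesoderm factor sna 0.497 to 1.96 CPM in ZI470 and 0.128 to 0.617 CPM in the others (adjusted p = 0.000814). The genes ftz and twi did not pass, and all 4 overlapped between ZI470 and the other lines. Without ZI470 replicate 2 neither eve nor sna was called, and without replicate 3 eve was not. Their part in the stage 2 Hsp70 values was not tested. Of the 8 chorion and yolk protein genes that mark follicle cells and yolk, Cp16 was at 0 in every embryo. Cp18 had 1.01 to 4.76 CPM in ZI470 and 0 to 2.23 CPM in the other lines at stage 5, and its part in the Hsp70 result was not tested. No gene of this list separated ZI470 from the other lines. Of the 8, only 2 passed the count filter in the stage 5 comparisons and 0 at stage 2, so most were too low to show a difference.

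The genes whose levels followed the Hsp70 sum most closely over the 24 stage 5 embryos were sought among 9994 genes (Pearson's r of log2 of CPM plus 0.5). Apart from the 8 genes themselves, the 5 highest were CG3649 (0.83), CG17991 (0.82), VAChT (0.81), Muc91C (0.81) and CG31213 (0.80). Hsp83 had an r of 0.82. These embryos share lines, and over the 21 embryos without ZI470 the values were 0.50, 0.66, 0.06, -0.47 and 0.37 for the 5 genes in the same order, and 0.34 for Hsp83. For VAChT and Muc91C the other lines had at most 0.0356 and 0.0412 CPM, so their r rests on ZI470. Hsp68 had an r of 0.48, and of -0.15 without ZI470.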

How the data were processed

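RNA of single embryos was sequenced from poly-A enriched stranded libraries. After adapter removal (Cutadapt), the authors aligned reads to the FlyBase genome by HISAT2 (version 2.1.0) and obtained gene counts by featureCounts. Raw counts of 48 embryos were deposited, and 0 columns were left unused. Symbols, positions and exon lengths came from the Ensembl release 115 annotation (BDGP6.54), which matched 17343 of 17481 identifiers.

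Counts were tested with edgeR 4.0.16 in R 4.3.3 (TMM, filterByExpr by line with a minimum count of 10 and a minimum total of 15, quasi-likelihood F-test, Benjamini-Hochberg adjusted p under 0.01), over all genes of each fit. The Hsp70 sum was added as 1 row. Line, population or stage was the term tested, with line kept in the fit for stage. DESeq2 1.42.0 was an alternative. The steps were tested on simulated data. The closing section names the other alternatives.

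The members and gene lists were chosen with earlier results of these data known. The named genes are the 8 members, list genes, neighbours and the 5 genes with the highest r. Replicate numbers were checked as pairs: 10 of 63 same-numbered pairs at stage 2 and 8 of 63 at stage 5 correlated above 0.1 after removal of line means, so they were not used as pairs.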

Additional observations from a re-analysis of the deposited data

How the results depend on the processing

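The stage 5 ratio of ZI470 to the other lines for the Hsp70 sum, 3.48 on the log2 scale, lay between 2.99 and 3.86 without 1 ZI470 embryo or RAL360 replicate 3. Its direction held with DESeq2's size factors, CPM of the deposited total, medians and a pseudocount of 0.5 CPM. An adjusted p under 0.05 called 1 of the 8 genes between ZI470 and the other lines at stage 2, 1 between the Raleigh lines at stage 2 and 7 between ZI050, ZI094 and ZI160 at stage 5, where it called 15.7%, 40.2% and 58.4% of all genes. DESeq2's test called 1, 1 and 5 in these comparisons, against 10.2%, 32.6% and 42% of all genes, and no filter called 7 in the last, against 27.7%. Without 1 embryo, between 0 and 2 genes were called between the Raleigh lines and between 0 and 6 between the Zambia lines at stage 2, while the share of all genes called lay between 13.5% and 21% and between 8.65% and 36.4%. The cause was not tested.

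Differences that changed sign had not passed the test. Without 1 embryo, the stage 2 difference of ZI470 lay between -0.75 and 1.77 for Hsp70Aa, -0.65 and 1.82 for Hsp70Ab, -1.09 and 0.96 for Hsp70Ba, -1.23 and 0.74 for Hsp70Bb, -1.37 and 0.75 for Hsp70Bbb, -1.22 and 0.90 for Hsp70Bc and -0.81 and 1.64 for the sum. That between populations at stage 2 lay between -0.54 and 0.0928 for Hsp70Aa, -0.48 and 0.14 for Hsp70Ab and -0.56 and 0.0549 for the sum, and at stage 5 between -0.35 and 0.72 for Hsp68, -0.0937 and 0.14 for Hsp83 and -0.25 and 0.11 for the sum. Hsp83 at stage 5 gave -0.012 with DESeq2's size factors, -0.00996 with DESeq2's test and -0.046 with the embryos of each line summed, against 0.00431.

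With the replicate number as a block, over the lines with distinct numbers and so without RAL357, Hsp70Bbb in ZI470 at stage 2 gave -0.00509 and Hsp83 between populations at stage 5 gave -0.11. Without the block the same lines, a setting chosen after seeing the data, gave -0.11 for Hsp83. With the block Hsp70Aa (adjusted p = 0.0132), Hsp70Ab (0.0126) and the sum (0.113) were no longer called by edgeR's quasi-likelihood test between the Raleigh lines at stage 5. The same lines without the block lost them too (adjusted p = 0.0454, 0.0466 and 0.152). The block changed no other call of a member. Summing the embryos of each line left 0 genes called between populations at stage 2, with 815 at an unadjusted p under 0.05. The stage change of the Hsp70 sum was then 1.80 (adjusted p = 0.0228, edgeR's quasi-likelihood test), which did not pass the threshold of 0.01. With embryos as replicates it was 1.92 (adjusted p = 6.65e-06, same test) and passed. RAL360 replicate 3 limits what can be said of low levels in that embryo.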
